A study of Homo sapiens with 6 samples.

Results

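In HCT116 cells that lack ZKSCAN3, 55 protein-coding genes were at least 4 times lower in every knockout library than in any parental library, and they are called here the silenced genes. They were chosen from the measured values alone. Reads per gene were scaled to 1000000 reads in the library (CPM), and a gene was kept if its lowest value in the 3 *ZK3*-WT libraries was at least 0.5 CPM and at least 4 times its highest value in the 3 *ZK3*-KO libraries. Of 19672 protein-coding genes, 12806 outside the excluded symbols reached 0.5 CPM in every *ZK3*-WT library, and the 55 silenced genes were 0.429% of them. The mirrored rule, with the genotypes exchanged, found 17 genes. Because the *ZK3*-KO values chose these genes, their difference between genotypes is given as a description and without a test. The excluded symbols were *EHF*, *SLC15A1* and all starting with TNFSF, TNFRSF or ABC, and 4 genes among them passed the rule.

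The HCT116 cell line comes from a human colon carcinoma. The *ZK3*-WT group was the parental line with wild-type *ZKSCAN3*, and the *ZK3*-KO group was a homozygous knockout made with CRISPR/Cas9, in which the start codon in the first exon was deleted on both alleles. Each group had 3 biological replicates, and both lines were grown in DMEM with 10% fetal bovine serum and no further treatment. Knockout cells came from transfected HCT116 cells that were selected with puromycin and grown from single cells, so traits of a clone and effects of the deletion cannot be told apart here. The number of clones behind the 3 *ZK3*-KO libraries is not given in the sources used here.

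ZKSCAN3 binds DNA through zinc fingers, carries a KRAB and a SCAN domain, and is known as a repressor of transcription, for example of autophagy genes. Interferon-stimulated genes are activated together when interferon receptors signal through JAK kinases to STAT proteins and IRF9, which bind a short element in their promoters. HOX, S100, KLRC and olfactory receptor genes sit in clusters of neighbouring copies, whose members need not be switched together.

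The libraries held 60827060 to 69739215 reads. *ZKSCAN3* RNA was 29.1, 24.2 and 20.2 CPM in the *ZK3*-WT libraries (replicates 1, 2 and 3, the order used throughout) and 25.8, 24.7 and 12.4 CPM in the *ZK3*-KO libraries, and these ranges overlapped. A count over the whole gene does not show whether a start codon is missing, so it checks neither label. *ZK3*-KO replicate 3 stood apart: its log expression correlated at 0.963 and 0.95 across genes with the other *ZK3*-KO libraries, against 0.985 between those and 0.983 to 0.989 among *ZK3*-WT libraries. Without it the rule chose 80 genes, which included all 55. All 6 epithelial markers examined (*EPCAM*, *CDH1*, *KRT8*, *KRT18*, *KRT19* and *CLDN7*) were detected in both groups, with a summed level of 3179 to 4009 CPM in *ZK3*-WT and 2790 to 5300 CPM in *ZK3*-KO libraries. Of 6 colon epithelial markers 1, *CDX2*, reached 1 CPM, and of 6 leukocyte markers none did, with *PTPRC* and *CD3E* at 0 in every library.

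The silenced genes together took 0.0974%, 0.107% and 0.0995% of the reads in the *ZK3*-WT libraries, against 0.0111%, 0.0107% and 0.01% in the knockout libraries. In the 3 knockout libraries the median silenced gene stood at 6.63%, 7.4% and 5.78% of its *ZK3*-WT mean. The highest knockout value came from replicate 1 for 19 genes, from replicate 2 for 17 and from replicate 3 for 17. Low values in all 3 libraries follow from the rule and do not show that the libraries are alike. Most silenced genes were not abundant in the parental cells. Their median *ZK3*-WT level was 5.46 CPM, with a highest value of 128 for *DEK*, against a median of 31.4 CPM over all eligible genes. Per transcript length, the medians were 3.62 and 18.7 TPM (reads per transcript length, scaled to a common sum). The mean knockout level was 0 to 21% of the mean *ZK3*-WT level, with a median of 7.54%. In bulk RNA, fewer cells with a transcript and less of it per cell cannot be told apart.

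**Figure D1:**
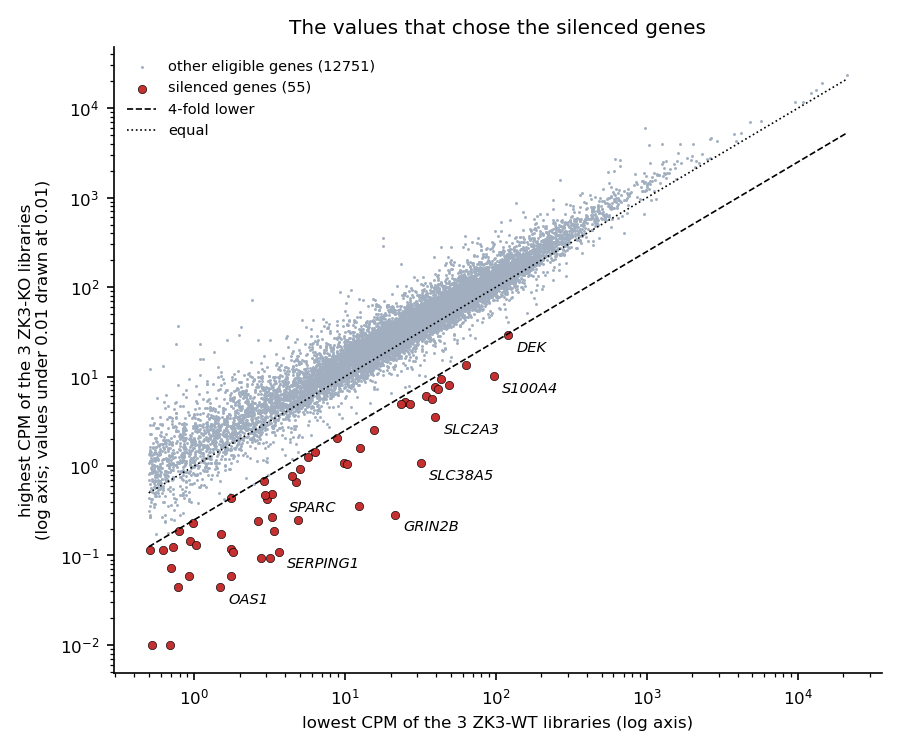
Each point is 1 of 12806 eligible genes, placed by its lowest CPM in *ZK3*-WT (x axis, log scale) and its highest CPM in *ZK3*-KO libraries (y axis, log scale, values under 0.01 drawn at 0.01). The 55 silenced genes (red) lie below the dashed line of a 4-fold lower level by construction, and most eligible genes lie along the dotted line of equal values.

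The distance to the threshold varied widely among them. The lowest *ZK3*-WT value was 4 to 8 times the highest *ZK3*-KO value for 31 genes, 8 to 16 times for 10, 16 to 32 times for 7 and 32 times or more for 5, of which *OAS1* had 3 knockout reads in all. The other 2 genes, *TUSC3* and *BMP5*, had 0 reads in all *ZK3*-KO libraries. Just inside the threshold were *KLRC4* (4 times), *DEK* (4.13), *KRTAP2-4* (4.18) and *GAB3* (4.3), and among the genes just outside were *IL15* (3.96), *HOXB4* (3.88) and *DLG4* (3.86). Small counts limit what can be said at the low end: 17 silenced genes had 0 reads in at least 1 *ZK3*-KO library, and 19 had fewer than 30 reads over the 3 together.

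All 55 silenced genes entered the fit across all genes, in which edgeR's quasi-likelihood test called 226 of 18366 genes lower in *ZK3*-KO cells (1.23%) and 150 higher (0.817%) at a false discovery rate (FDR) under 0.05. Of the silenced genes it called 50 lower, a count that follows from how they were chosen. That count was 24 to 27 when any 1 *ZK3*-WT library was left out, 34 and 45 without *ZK3*-KO replicate 1 or 2, and 55 without replicate 3. Their median log2 fold change was -3.66, against 0.02 over all genes tested.

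**Figure D2:**
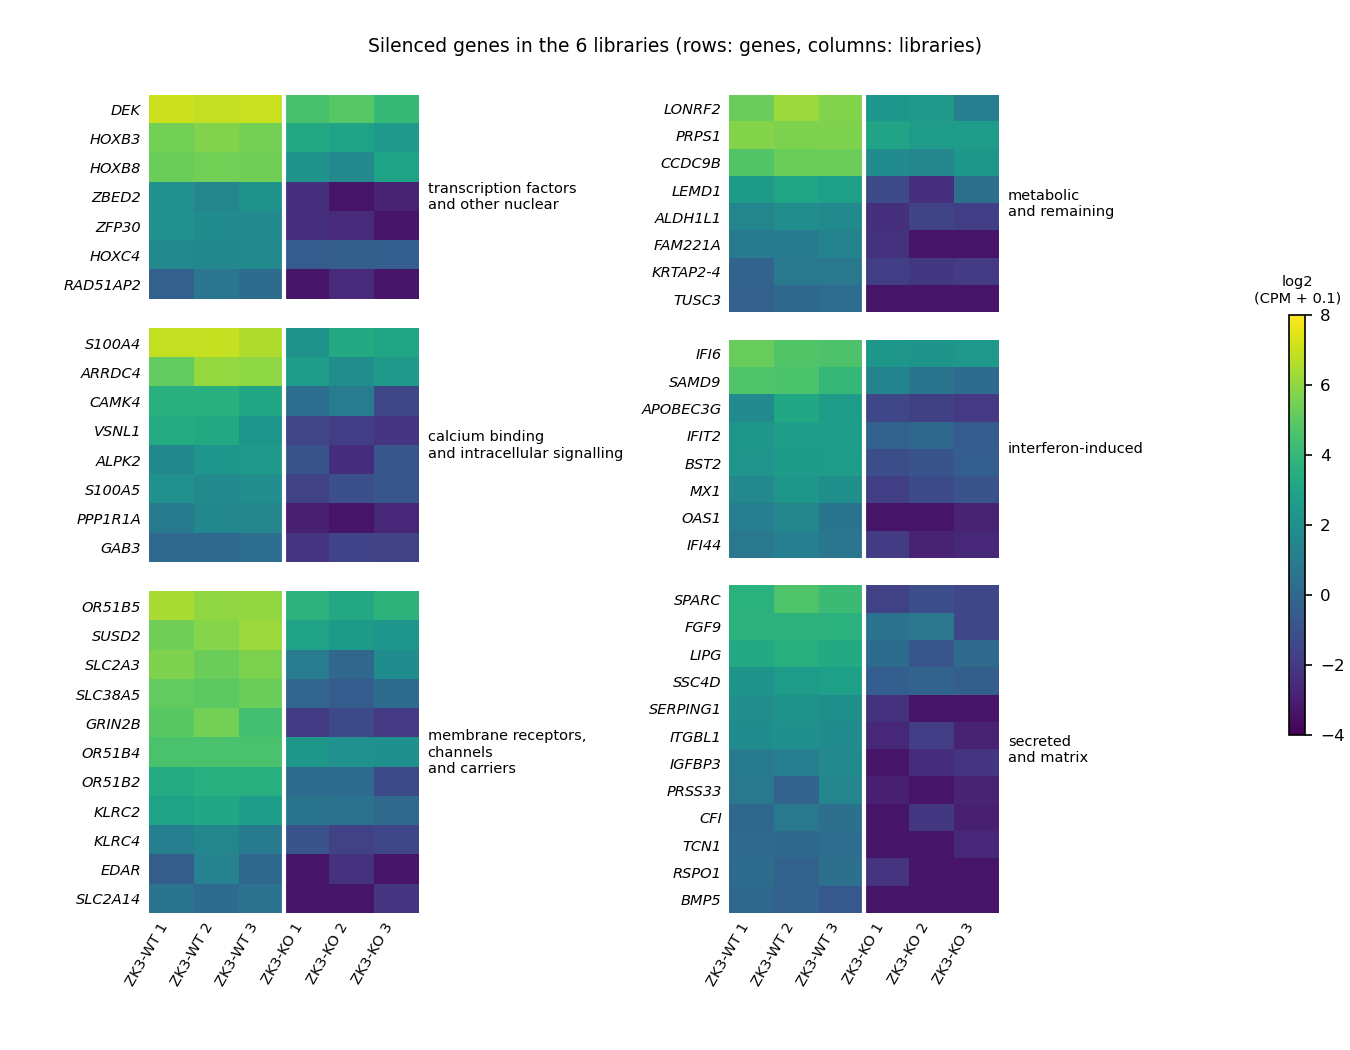
Levels of silenced genes (rows, 6 groups by function) in the 6 libraries (columns), coloured by log2(CPM + 0.1). Every gene is darker in each of the 3 *ZK3*-KO libraries, and *DEK* and *S100A4* are the brightest in *ZK3*-WT.

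By function, the silenced genes were sorted after their identity was known into 12 secreted or matrix proteins, 11 membrane receptors, channels and carriers, 8 interferon-induced genes, 8 genes of calcium binding and intracellular signalling, 7 transcription factors and other nuclear proteins and 9 metabolic and remaining genes. The median knockout level was lowest in the secreted and matrix group, at 2.8% of *ZK3*-WT, and highest in the nuclear group, at 12%. Across 30 lists of gene families and pathways, 34 of the 55 genes were in at least 1 list and 21 in none.

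No list other than that of interferon response and antigen presentation held more than 3 silenced genes. Of its 97 eligible genes, 8 were silenced (8.25%, against 0.429% of all eligible genes). *IFI6*, which encodes a mitochondrial protein with antiviral activity, was at 37.5, 26.8 and 25.1 CPM in *ZK3*-WT and at 4.99, 4.52 and 5.2 CPM in *ZK3*-KO cells. *SAMD9*, a restriction factor against poxviruses, was at 26.1, 24.6 and 15.7 against 2.53, 1.43 and 1.03 CPM. *APOBEC3G*, a cytidine deaminase that edits retroviral DNA, was at 3.29, 8.63 and 5.97 against 0.267, 0.201 and 0.147 CPM. The 3 genes differed in their parental level and in its spread, which was 2.63-fold between the lowest and highest *ZK3*-WT library for *APOBEC3G*. *IFIT2*, which binds viral RNA, was at 5, 6.23 and 6.45 against 0.724, 0.932 and 0.603 CPM. *BST2*, the tetherin that holds budding virus at the cell surface, was at 4.72, 5.64 and 6.02 against 0.362, 0.445 and 0.662 CPM. *MX1*, a dynamin-like GTPase that blocks influenza virus, was at 3.06, 4.93 and 3.82 against 0.189, 0.301 and 0.427 CPM. None of these fell to 0 in any knockout library. *IFI44* was at 1.63, 2.2 and 1.51 against 0.173, 0.043 and 0.0589 CPM. *OAS1*, which makes the oligoadenylate that activates RNase L, had 410 reads in *ZK3*-WT and 3 in *ZK3*-KO libraries, all 3 in replicate 3, a ratio of 141 with a counting interval of 47.4 to 679.

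The rest of the list was not chosen by the rule. Among the 103 tested genes of the list outside the silenced set, 13 were called lower (12.6%, against 1.23% of all genes) and 0 higher, their median log2 fold change was -0.45 and 82 were below 0. At an unadjusted p under 0.05, edgeR gave 36 lower and 5 higher, and DESeq2 called 27 lower and 1 higher. Over the whole table, 3371 of 18366 genes had an unadjusted edgeR p under 0.05 in either direction. The same background applies to such counts below. DESeq2 also called more genes than edgeR over the whole table. The 13 genes were *APOBEC3A*, *CASP4*, *PSMB9*, *HLA-DRA*, *IFIT3*, *IFITM1*, *PARP12*, *PARP9*, *OASL*, *APOBEC3F*, *DDX58*, *IFITM3* and *TAPBP*. *IFITM1*, which hinders virus entry, fell from 7.84, 7.82 and 7.97 to 2.6, 2.74 and 2.43 CPM (log2 fold change -1.52 ± 0.19 SE, FDR 0.0112). *PSMB9*, an immunoproteasome subunit, fell from 6.13, 5.7 and 4.89 to 1.45, 1.29 and 0.633 CPM (log2 fold change -2.24 ± 0.32 SE, FDR 0.0204). The genotypes did not overlap for either gene. *IFIT1*, of the same family as *IFIT2*, was at 20.5, 11.5 and 11 against 4.53, 4.36 and 1.65 CPM and did not pass (FDR 0.0613). The count of 13 rested on all libraries: it was 0 when any *ZK3*-WT library or *ZK3*-KO replicate 1 was left out, 6 without *ZK3*-KO replicate 2 and 42 without replicate 3, while the median stayed between -0.6 and -0.4. Calls over all genes shifted too, and without *ZK3*-KO replicate 3 they were 1459 lower of 18872 tested (7.73%).

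**Figure D3:**
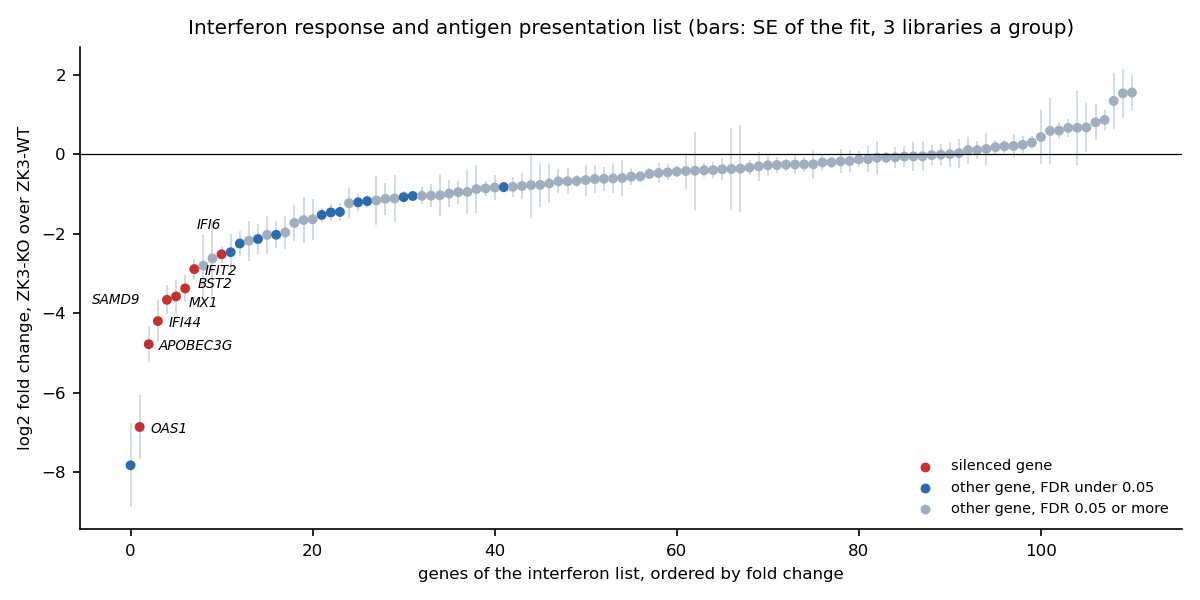
Log2 fold change (y axis, *ZK3*-KO over *ZK3*-WT, bars give the SE of the edgeR fit) of the tested genes in the interferon list, ordered by fold change (x axis). The 8 silenced genes (red) are among the lowest by choice, 13 others pass the FDR of 0.05 (blue), and most of the remaining genes (grey) lie below 0. The lowest point, *APOBEC3A*, had 0 reads in all *ZK3*-KO libraries, so its fitted value depends on the prior count.

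The receptors and signal transducers through which interferon acts were then listed, after the silenced genes were known. None of those described here was silenced. *IRF9*, which binds DNA with STAT proteins, was at 32.4, 25.6 and 29.1 CPM in the *ZK3*-WT libraries and 7.71, 5.76 and 12.6 CPM in the *ZK3*-KO libraries (log2 fold change -1.64, FDR 0.0532). *IRF9* did not overlap between genotypes and did not pass the test. *JAK1* (-0.91, FDR 0.0904) and *IFNAR2* (-0.67, FDR 0.0857) did not pass either, and neither did *STAT2* (-0.28, FDR 0.495), *IFNAR1* (-0.08, FDR 0.808) or *TYK2* (0.3, FDR 0.345).

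The element bound by this pathway, the interferon-stimulated response element (ISRE), was searched by its core (GAAA, any 2 bases and GAAA again) on both strands, in windows from 250 bases before to 50 bases after each gene's start. In windows of the GRCh37 genome, the core was found in 7 of 55 silenced genes (12.7%), in 346 of 12603 other eligible genes (2.75%) and in 3.32% of 19116 promoters in all. Those 7 were *IFI6*, *SAMD9*, *APOBEC3G*, *IFIT2*, *BST2*, *IFI44* and *OR51B5*, so that 6 of the 8 silenced interferon genes held it, against 36 of the 89 other eligible genes of the list (40.4%). A match is a description of the letters and not a bound site. The stretches around the core are shown for the silenced interferon genes whose window in the RefSeq promoter table held it (build GRCh38.p14, a table with 39 of the 55 silenced genes). The core is in capitals, and the set is shown because most of these genes carry it. In *MX1* the core lay inside the RefSeq window but not in the GRCh37 window of its canonical transcript.
*BST2*, chr19:17405720-17405785, minus strand: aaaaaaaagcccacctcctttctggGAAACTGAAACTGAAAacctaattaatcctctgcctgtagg
*IFI6*, chr1:27672251-27672373, minus strand: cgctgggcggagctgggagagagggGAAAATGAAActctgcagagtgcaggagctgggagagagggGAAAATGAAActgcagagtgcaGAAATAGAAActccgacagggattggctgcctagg
*MX1*, chr21:41420544-41420603, plus strand: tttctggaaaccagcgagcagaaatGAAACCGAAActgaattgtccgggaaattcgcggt
*IFI44*, chr1:78649746-78649805, plus strand: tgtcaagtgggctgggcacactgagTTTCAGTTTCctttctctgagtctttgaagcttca
*SAMD9*, chr7:93118081-93118140, minus strand: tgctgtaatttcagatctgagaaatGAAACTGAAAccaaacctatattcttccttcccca
The first match started at position -130 relative to the gene's start in *BST2*, -156 in *IFI6*, 12 in *MX1*, -18 in *IFI44* and -136 in *SAMD9*. *IFI6* held 3 matches, *BST2* 2 that overlap, and the others 1 each. In *IFI44* the core is read on the opposite strand, as TTTC, any 2 bases and TTTC.

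Among membrane proteins, *GRIN2B* had the widest gap of all silenced genes with reads in every library. It encodes a subunit of the NMDA glutamate receptor, a channel known from neurons, and lies at chr12:13590876-14134936 (GRCh37). Its level was 30.4, 44.9 and 21.4 CPM in *ZK3*-WT and 0.173, 0.287 and 0.147 CPM in *ZK3*-KO cells, and the *ZK3*-KO mean was 0.628% of the *ZK3*-WT mean. The *ZK3*-WT libraries spread 2.1-fold, far less than the gap between genotypes. Of the list of ion and water channels, 1 of the other 186 tested genes was called lower and 2 higher (0.538% and 1.075%, against 1.23% and 0.817% of all tested genes). Of 109 neuronal and synaptic genes edgeR called 0. At an unadjusted edgeR p under 0.05, 19 were lower and 12 higher, against 3371 of 18366 genes over the whole table in either direction. DESeq2 called 9 lower and 5 higher.

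Of 243 eligible solute carriers, 3 were silenced (1.235%, against 0.429% of all eligible genes). *SLC38A5*, a glutamine carrier, was at 34.5, 31.8 and 39.4 CPM against 0.834, 0.602 and 1.07 CPM. *SLC2A3* (chr12:8071826-8171603), the glucose carrier GLUT3, was at 51.1, 39.6 and 48.8 against 2.03, 0.86 and 3.49 CPM. *SLC2A14*, the duplicated copy next to it on chromosome 12, was at 1.41, 1.03 and 1.4 against 0, 0 and 0.133 CPM, with all its 9 knockout reads in replicate 3, the library in which *SLC2A3* was also highest. These copies are nearly identical in sequence, so reads may be split between them and their separate values are uncertain. Of the 271 other solute carriers tested, 3 were called lower and 4 higher (1.11% and 1.48%, against 1.23% and 0.817% of all tested genes). The 3 include *SLC15A1*, at 5.39, 6.45 and 5.01 against 0, 0.0717 and 0 CPM. It passed the rule and was left out by its symbol alone, so its call follows from the values the rule used.

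Other silenced receptors and membrane proteins covered a wide range of parental levels. *EDAR*, the ectodysplasin receptor, was at 0.625, 2.39 and 0.947 against 0, 0.115 and 0 CPM, a parental spread of 3.83-fold that was the widest of the silenced genes. *SUSD2*, a membrane protein with a sushi domain, was at 41.5, 56.6 and 73.7 against 7.34, 5.68 and 4.77 CPM. In *SUSD2* the highest *ZK3*-WT value came with replicate 3 and the lowest *ZK3*-KO value too. *KLRC2* and *KLRC4* encode lectin-like receptors of the NKG2 family known from natural killer cells. *KLRC2* was at 7.4, 9.03 and 6.32 against 1.43, 1.28 and 1 CPM. *KLRC4* was at 2.17, 2.76 and 1.76 against 0.44, 0.215 and 0.265 CPM. In their cluster on chromosome 12, 2 of the 4 other tested genes, *KLRC3* (log2 fold change -2.3, FDR 0.0222) and *KLRC1* (-2.16, FDR 0.0498), were called lower, while *KLRK1* and the readthrough gene *KLRC4-KLRK1* were not. The KLRC genes are close copies that overlap in part, and their separate values are uncertain.

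The olfactory receptor genes *OR51B4*, *OR51B5* and *OR51B2* lie beside the beta-globin cluster on chromosome 11. *OR51B5* was at 86.3, 63.7 and 66.4 CPM in *ZK3*-WT and 12.9, 9.45 and 13.4 CPM in *ZK3*-KO cells. *OR51B4* was at 23.5, 23.6 and 23.6 against 4.97, 4.1 and 3.92 CPM. *OR51B2* was at 10.2, 11.4 and 11.9 against 1.05, 1.03 and 0.294 CPM. *OR51B4* hardly varied among the *ZK3*-WT libraries, and the knockout level of *OR51B2* was lowest in replicate 3. The gene model of *OR51B5* spans chr11:5324674-5526882 (GRCh37) and covers *OR51B2*, *HBE1* and *HBG2* on the same strand, so reads of these genes may be shared. *HBE1*, the embryonic globin, was at 61.2, 60.1 and 60.9 against 13.6, 9.29 and 26.8 CPM, with an FDR of 0.0757, and edgeR called 0 of the 4 other tested genes in the window (*HBE1*, *HBG1*, *HBG2* and *OR51I1*, log2 fold change -1.76 to -1.3). All 4 were below 0 with an unadjusted p under 0.05, and DESeq2 called 2 lower.

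Homeobox genes were silenced in part of a cluster and singly. *HOXB3* was at 43, 52.8 and 44.2 CPM in *ZK3*-WT and 9.36, 7.53 and 5.61 CPM in *ZK3*-KO cells, and *HOXB8* at 39.3, 43.4 and 41.7 against 4.29, 3.07 and 7.62 CPM. Both encode transcription factors that set position along the body axis. Of the 7 other tested genes of the HOXB cluster on chromosome 17, *HOXB2* (log2 fold change -2.6, FDR 0.0283), *HOXB4* (-2.28, FDR 0.00551), *HOXB5* (-1.51, FDR 0.0247) and *HOXB6* (-1.99, FDR 0.00424) were called lower. *HOXB7*, whose gene model reaches over *HOXB8* and *HOXB9*, was at 31.1, 29.1 and 29.9 against 25.2, 26.2 and 24.5 CPM (log2 fold change -0.16, FDR 0.564). *HOXB13* was at 15.3, 11 and 9.63 against 14.9, 12.2 and 12.9 CPM (0.24, FDR 0.594). *HOXB9* was at 55.1, 97.5 and 106 against 15.6, 11.3 and 56.7 CPM and overlapped between genotypes through *ZK3*-KO replicate 3. By these counts, genes with a log2 fold change near 0 and well below it stood side by side. The gene model of *HOXB3* covers *HOXB4*, *HOXB5* and *HOXB6*, and that of *HOXB7* covers *HOXB8* and *HOXB9*, on the same strand. How reads in the shared parts were assigned is not given in the sources used here, so the separate values of these genes are uncertain. *HOXC4* was at 2.99, 2.91 and 3.25 against 0.598, 0.674 and 0.648 CPM, and edgeR and DESeq2 called 0 of the 7 other tested HOXC genes, with log2 fold changes from -0.22 to 0.79 and 1 gene higher at an unadjusted p under 0.05.

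**Figure D4:**
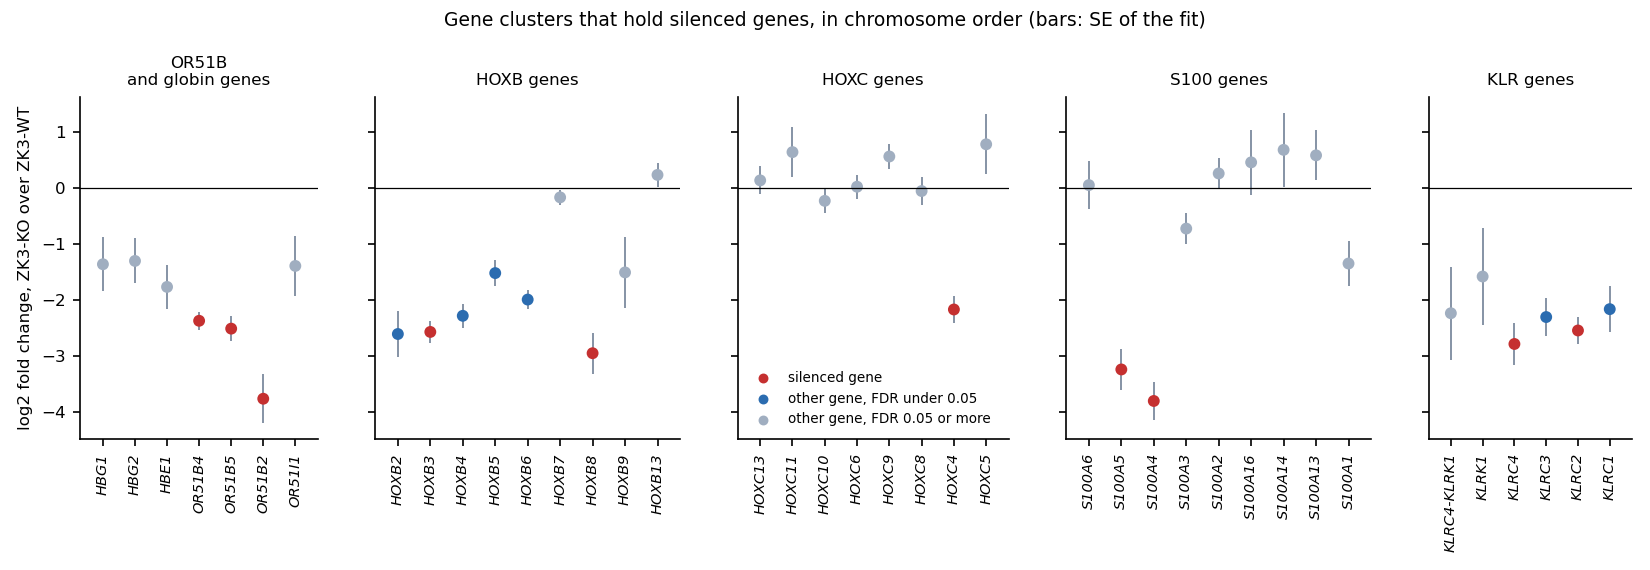
Log2 fold change (y axis, *ZK3*-KO over *ZK3*-WT, bars give the SE of the edgeR fit) of the tested genes in 5 clusters, each ordered along its chromosome (x axis). Silenced genes (red) stand among other lowered genes (blue) in the HOXB and KLR clusters, and beside genes that did not pass the FDR of 0.05 (grey) in the others.

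Among homeobox, forkhead, SOX and related transcription factors outside the silenced set, 14 of 355 tested were called lower and 4 higher. These shares were 3.94% and 1.13%, against 1.23% and 0.817% of all tested genes, and the median log2 fold change was -0.04. The 14 include *HOXB2* and also *HOXB4*, *HOXB5* and *HOXB6*, which the gene model of *HOXB3* covers on the same strand. Part of that count thus comes from the HOXB cluster described above. *SOX9*, a factor of intestinal crypt cells, fell from a mean of 195 to 64.8 CPM (log2 fold change -1.51, FDR 0.00697) and *RUNX2* from 11.4 to 3.39 CPM (-1.66, FDR 0.0142). Other silenced nuclear genes belonged to no shared family. *DEK* (chr6:18224091-18264779), a chromatin protein and the silenced gene with the most reads, was at 135, 120.0 and 129 CPM against 22.8, 29 and 16.3 CPM. *ZFP30*, a KRAB zinc finger gene, was at 4.14, 3.32 and 3.19 against 0.0944, 0.0717 and 0 CPM and *ZBED2* at 4.13, 2.77 and 4.34 against 0.0944, 0 and 0.0442 CPM. *ZFP30* was the single silenced gene of 452 eligible zinc finger genes (0.221%, against 0.429% of all eligible genes). *RAD51AP2* was at 0.707, 1.52 and 1.06 against 0, 0.0717 and 0 CPM, with 5 knockout reads, all in replicate 2.

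Several silenced genes take part in calcium signalling. *S100A4* (chr1:153516089-153522612, GRCh37), a calcium-binding protein known as metastasin, was at 119.8, 122 and 96.4 CPM in *ZK3*-WT and 4.28, 10.2 and 8.35 CPM in *ZK3*-KO cells, and by transcript length it was the most abundant silenced gene, with a mean of 450 against 29.4 TPM. *S100A5*, 1848 bases away on chromosome 1, was at 4.04, 3.26 and 3.64 against 0.22, 0.373 and 0.486 CPM. Of the 7 other tested S100 genes in the window, edgeR and DESeq2 called 0, and 2 were lower at an unadjusted p under 0.05. *S100A6* was at 450.2, 354 and 467 against 280.0, 244 and 695 CPM, and *S100A3*, which overlaps *S100A4* on the same strand, at 1.63, 1.37 and 1.69 against 0.739, 1.07 and 0.868 CPM (log2 fold change -0.72, FDR 0.239). *VSNL1*, the calcium sensor visinin-like 1, was at 10.2, 9.76 and 4.85 against 0.252, 0.186 and 0.133 CPM. *CAMK4*, a calmodulin-dependent kinase, was at 12.3, 12.1 and 8.86 against 1.16, 2.04 and 0.265 CPM. Relative to its mean, *CAMK4* varied more among the knockout than among the *ZK3*-WT libraries. *PPP1R1A*, an inhibitor of protein phosphatase 1, was at 1.74, 2.98 and 2.65 against 0.0315, 0 and 0.0589 CPM. *ARRDC4*, an alpha-arrestin, was at 34.2, 68.8 and 62 against 6.09, 3.61 and 5.43 CPM. *GAB3*, a docking protein of growth factor receptors, was at 0.986, 0.989 and 1.15 against 0.126, 0.229 and 0.221 CPM. These 3 differed in abundance, and *PPP1R1A* alone lacked reads in a knockout library. *ALPK2*, an alpha-kinase, was at 2.94, 4.8 and 5.41 against 0.44, 0.086 and 0.471 CPM. Of 362 other kinase and phosphatase genes tested, 6 were called lower and 1 higher (1.66% and 0.276%, against 1.23% and 0.817% of all tested genes).

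Secreted signals and matrix proteins were the largest of the 6 groups. *SPARC* (chr5:151040657-151066536), a collagen-binding matrix protein, was at 12.4, 25.6 and 18 CPM against 0.22, 0.358 and 0.28 CPM. *FGF9*, a fibroblast growth factor, was at 12.9, 13.1 and 12.5 against 1.4, 1.58 and 0.265 CPM, with the lowest value in *ZK3*-KO replicate 3. *IGFBP3*, which binds insulin-like growth factors, was at 1.74, 2.17 and 3.22 against 0, 0.086 and 0.118 CPM. *FGF9* thus kept more of its *ZK3*-WT level (8.43%) than *SPARC* (1.53%) and *IGFBP3* (2.86%). *RSPO1*, an enhancer of WNT signalling, was at 1.07, 0.723 and 1.24 against 0.126, 0 and 0 CPM, with all 8 knockout reads in replicate 1. *BMP5*, a bone morphogenetic protein, was at 0.954, 0.767 and 0.524 CPM in *ZK3*-WT and had 0 reads in *ZK3*-KO libraries, which puts its mean at least 16.7-fold lower when 3 reads in each library are taken as the floor. Counts of this size do not separate a low level from none. Of 128 other growth factor, cytokine and chemokine genes tested, 2 were called lower and 2 higher (1.56% each), and of 94 other matrix genes 4 were lower and 3 higher (4.26% and 3.19%), against the same 1.23% and 0.817%.

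Inhibitors and enzymes outside the cell were part of this group. *SERPING1*, the C1 inhibitor of the complement system, was at 3.65, 4.31 and 3.86 against 0.11, 0 and 0 CPM, with 7 knockout reads, all in replicate 1. *CFI*, complement factor I, was at 0.937, 1.67 and 1.24 against 0, 0.143 and 0.0294 CPM. Both restrain complement, and both had 0 reads in at least 1 *ZK3*-KO library. *PRSS33*, a serine protease, was at 1.66, 0.782 and 2.64 against 0.0315, 0 and 0.0442 CPM. *LIPG*, the endothelial lipase, was at 9.77, 11.6 and 10.0 against 1.07, 0.487 and 1 CPM. *TCN1*, which carries vitamin B12, was at 1.02, 0.93 and 1.11 against 0, 0 and 0.0589 CPM. *LIPG* was detected in every knockout library and *TCN1* in replicate 3 alone. *ITGBL1*, an integrin beta-like secreted protein, was at 3.42, 3.91 and 3.38 against 0.0629, 0.186 and 0.0442 CPM, and *SSC4D*, of the scavenger receptor cysteine-rich family, at 4.47, 5.96 and 6.8 against 0.645, 0.774 and 0.677 CPM.

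The remaining genes had separate roles. *PRPS1*, the enzyme that makes phosphoribosyl pyrophosphate for nucleotide synthesis, was at 55, 49 and 50.4 against 7.97, 5.89 and 5.97 CPM, and *ALDH1L1*, an enzyme of folate metabolism, at 2.65, 3.57 and 3.19 against 0.0944, 0.244 and 0.191 CPM. *TUSC3*, a subunit of the oligosaccharyltransferase that glycosylates proteins, was at 0.691, 0.9 and 1.11 CPM in *ZK3*-WT and had 0 reads in *ZK3*-KO libraries, at least 20.1-fold lower on the same floor. *LONRF2* was at 37.6, 72.9 and 52.5 against 4.83, 5.58 and 2.18 CPM and *CCDC9B* at 27, 39.9 and 39.1 against 3.4, 2.8 and 4.95 CPM. These were the more abundant genes of this group with *PRPS1*. *LEMD1* was at 5.67, 8.25 and 6.7 against 0.33, 0.1 and 1.27 CPM, with its highest knockout value in replicate 3, and *FAM221A* at 1.91, 1.81 and 2.49 against 0.11, 0 and 0 CPM. *KRTAP2-4*, a keratin-associated protein, was at 0.789, 1.62 and 1.65 against 0.189, 0.143 and 0.162 CPM. In all, 17 silenced genes are overlapped by another protein-coding gene.

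Of the 30 lists, 15 held no silenced gene. Among the larger of these were small GTPases and their regulators (379 eligible genes), ubiquitin ligases and TRIM genes (350), mitochondrial and energy metabolism (288), cytoskeletal genes (202) and chromatin and DNA methylation (174). Cell-cell adhesion, receptor kinases, axon guidance, intestinal differentiation, imprinted and germ line genes held none either. At the share of all eligible genes, 0.429%, lists of these sizes would hold few silenced genes or none. An empty list is therefore not a result about its family.

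Position along the genome was a feature the rule did not use. Chromosome 12 held 8 silenced genes of 674 eligible (1.19%), against 0.429% of all eligible genes. Chromosome 1 held 6 of 1293 (0.464%) and chromosome 11 held 5 of 734 (0.681%). Chromosome 18 with 2 of 173 (1.16%) and chromosome 13 with 2 of 200 (1%) had shares like that of chromosome 12. The 8 on chromosome 12 were *SLC2A3*, *SLC2A14*, *KLRC2*, *KLRC4*, *GRIN2B*, *HOXC4*, *PPP1R1A* and *OAS1*. Among eligible genes, 5 pairs of silenced genes were direct neighbours, which involved 9 genes: *S100A5* with *S100A4*, *OR51B4* with *OR51B5*, *OR51B5* with *OR51B2*, *SLC2A14* with *SLC2A3* and *RAD51AP2* with *VSNL1*, of which the last pair lies 20686 bases apart and shares no family.

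The nearest tested genes on each side that were not silenced themselves gave 101 neighbours. Of these, 9 were called lower (8.91%, against 1.23% of all genes) and 2 higher (1.98%, against 0.817%). The 9 were *KRTAP2-3*, *HOXB2*, *KLRC3*, *HOXB4*, *KLRC1*, *HOXB6*, *APOBEC3F*, *SLC41A3* and *CDK18*, and 7 of them belong to the same family as the silenced gene beside them. *KRTAP2-3*, 5002 bases from *KRTAP2-4*, was at 4.42, 12.1 and 13 against 0.786, 0.416 and 1.19 CPM (log2 fold change -3.52, FDR 0.0282). *SLC41A3*, a magnesium carrier 2001 bases from *ALDH1L1*, was at a mean of 34.8 against 16 CPM (-1.03, FDR 0.0176). Higher in the knockout were *ZNF607* beside *ZFP30* (log2 fold change 1.22, FDR 0.0279) and *DLC1*, 1812605 bases from *TUSC3* (4.61, FDR 0.0352). Without the genes that overlap the silenced gene they were listed beside, 7 of 87 neighbours were lower (8.05%). These still include *HOXB6*, listed beside *HOXB8*, which the gene model of *HOXB3* covers on the same strand. The median log2 fold change over all 101 was -0.06 (0.02 over all genes), with 61 below 0. The count of 9 was 2 or 3 when any *ZK3*-WT library, *ZK3*-KO replicate 1 or *ZK3*-KO replicate 2 was left out and 20 without *ZK3*-KO replicate 3. In the fit without that replicate, 7.73% of all 18872 genes tested were called lower. Of 4 tested noncoding genes that overlap a silenced gene or carry its name, 1 was called lower, *BLACAT1* within *LEMD1* (-2.71, FDR 0.0319), and *HOXB-AS3*, *LEMD1-DT* and *HOXB-AS1* were below 0 without passing.

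The promoters were also described by their base composition, which the rule did not use. The CpG ratio compares the number of CG dinucleotides in a window with the number its C and G content would give by chance, and windows at 0.6 or above are usually counted as CpG-rich. In the same 300-base windows of GRCh37, 22 of 55 silenced genes (40%) reached 0.6, against 86.7% of 12603 other eligible genes. Their median ratio was 0.4 against 0.86, and their median GC content 58.7% against 66.7%. Genes of low expression held fewer CpG-rich promoters, and silenced genes were mostly of low expression. The difference was therefore also read on each side of a *ZK3*-WT level of 5.46 CPM, the median of the silenced genes. Below it, 11 of 27 silenced genes (40.7%) reached 0.6 against 60.8% of 1772 others. At or above it, 11 of 28 (39.3%) did against 90.9% of 10831 others. Levels were not matched within each side, and the others above the cut reached far higher levels than the silenced genes. The difference there cannot be separated from level. Of 4 further motifs searched on both strands, the TATA box (TATAAA) was found in 9 silenced genes (16.4%), in 4.81% of the other eligible genes and in 9.48% of all promoters. The GC box (GGGCGG, which itself holds a CG) was found in 24 (43.6%), 75.4% and 62.2%. The AP-1 motif (TGANTCA) and the E-box (CACGTG) were each found in 3 silenced genes (5.46%), against 5.41% and 8.8% of all promoters.

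**Figure D5:**
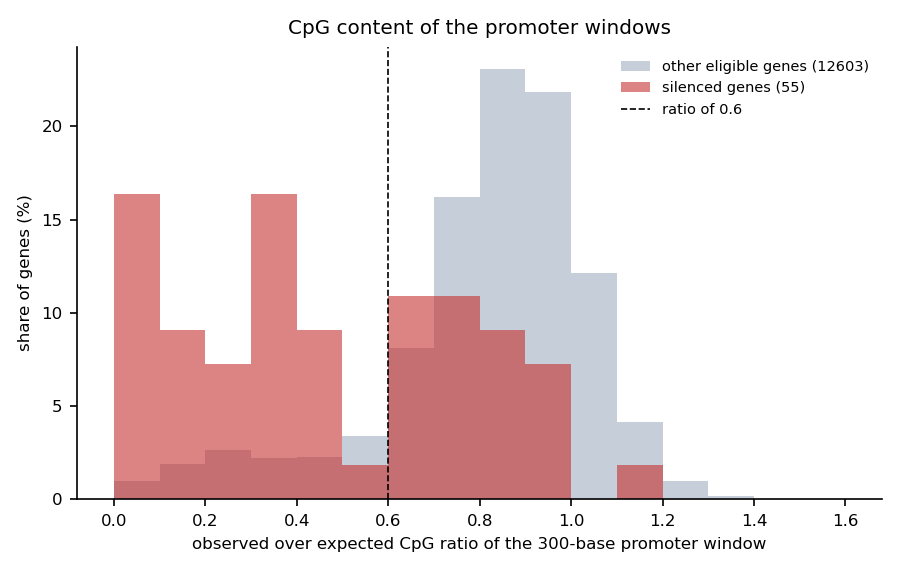
Share of genes (y axis, percent) by the CpG ratio of the promoter window (x axis) for 55 silenced genes (red) and 12603 other eligible genes (grey), with the ratio of 0.6 as a dashed line. Of the silenced genes 22 lie at or above the line and the rest are spread below it, whereas the others gather between 0.7 and 1.1.

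Windows from the RefSeq table (GRCh38.p14, 300 bases, CG in capitals) show both kinds of promoter among strongly silenced genes. The *GRIN2B* window held 22 CG and the *S100A4* window 8.
*GRIN2B*, chr12:13982085-13982384, minus strand: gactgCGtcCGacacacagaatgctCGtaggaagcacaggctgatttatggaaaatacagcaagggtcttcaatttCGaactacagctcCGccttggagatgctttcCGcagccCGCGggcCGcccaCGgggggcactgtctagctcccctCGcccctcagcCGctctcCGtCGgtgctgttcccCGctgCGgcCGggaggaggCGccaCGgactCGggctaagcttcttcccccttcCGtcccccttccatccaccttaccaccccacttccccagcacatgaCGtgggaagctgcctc
*S100A4*, chr1:153545757-153546056, minus strand: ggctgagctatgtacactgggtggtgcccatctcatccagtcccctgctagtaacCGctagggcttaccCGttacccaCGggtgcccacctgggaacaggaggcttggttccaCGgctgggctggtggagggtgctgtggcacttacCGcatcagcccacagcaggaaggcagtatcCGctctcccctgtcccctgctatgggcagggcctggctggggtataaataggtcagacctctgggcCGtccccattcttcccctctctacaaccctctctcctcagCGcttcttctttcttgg
DNA methylation was not measured here.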

How the data were processed

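RNA of 3 parental (*ZK3*-WT) and 3 *ZK3*-KO HCT116 cultures was sequenced from stranded, polyadenylated 150-base paired-end libraries. The submitters' notes name Bowtie2 2.2.5 and hg19 (GRCh37), the methods name Partek Flow with Ensembl transcripts, and the table lists NCBI Gene and RefSeq identifiers. Whether reads were counted by strand is not given in the sources used here. The authors deposited 1 table of 46427 genes with raw read counts, FPKM values (per transcript length and library total) and TPM values (per transcript length, with a common sum). CPM was computed from the counts and column totals. The deposited TPM and FPKM values were used for levels by length and in alternatives.

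The whole table was fitted with edgeR 4.0.16 in R 4.3.3 (filterByExpr, TMM, quasi-likelihood test, genotype as the only factor), with Benjamini-Hochberg adjustment over 18366 genes. Standard errors (SE) were derived from that fit, as the absolute log2 fold change over the square root of the F statistic. Intervals and floors of 3 reads cover counting error only. Positions and promoter windows came from GENCODE v44lift37 on GRCh37, matched by HGNC gene number, or by symbol where that found no match. A position was found for 55 of 55 silenced genes and 99.2% of eligible genes. The fit was tested on simulated counts.

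The silenced genes, the 30 lists and the alternatives were chosen with earlier results of these data known. Genes named are the 15 most abundant silenced genes, the 15 with the largest gap, up to 5 per list, 4 on each side of the threshold, adjacent pairs, called neighbours and noncoding rows, and the other silenced genes were added afterwards so that they have their values too. A few genes that this rule names are not reported here. The functional groups, the windows of clustered genes, the list of interferon receptors, and the split by *ZK3*-WT level were set after the genes were known.

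Deviations from the group mean correlated between libraries that share a replicate number (r over genes 0.294, 0.112 and 0.449), against -0.343 to 0.209 for libraries that do not. The sources do not say what the number marks. A block for that number entered 1 alternative only. Other alternatives were DESeq2 1.42.0, library totals, all genes with a read, limma 3.58.1 on log2(TPM + 1) and each library left out.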

Additional observations from a re-analysis of the deposited data

How the results depend on the processing

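The number of silenced genes depended on the rule's own limits: 148 with a fold of 2, 24 with 8, 14 with 16 and 23 with a lowest *ZK3*-WT level of 5 CPM. It was 49 with TMM-adjusted library sizes, all of them among the 55, and 59 to 80 when each library was left out in turn. Across all genes, 226 were called lower and 150 higher. DESeq2 called 795 lower and 711 higher. Higher calls were 97 with all genes that had a read and 88 with limma on log2(TPM + 1). Leaving out each library gave 38 to 1459 lower and 11 to 1399 higher, with the highest counts without *ZK3*-KO replicate 3. Neighbours called lower were 9, 16 with DESeq2 and 2 to 20 with a library left out, and neighbours called higher were 2, 1 with limma and 0 to 10. List genes outside the silenced set were 79 lower and 53 higher, 273 and 224 with DESeq2, 30 higher with limma, and 5 to 517 lower and 5 to 369 higher with a library left out. The 79 include *SLC15A1*, which passed the rule and was left out by its symbol. Leaving out a library also removes samples, and the cause of the other shifts was not tested. With the replicate number as a block, a pairing whose origin the sources do not state, 283 genes were lower and 178 higher, the silenced genes called lower were 53 in place of 50, and no count in the text moved by over 1.5 times. The share of silenced genes with a CpG-rich window was 18.2% at a ratio of 0.8, against 62.4% of the others, and 50.9% at 0.4, against 92.3%. Of 53 silenced genes with a fitted fold change, all stayed below 0 under all 10 alternatives, which follows from how they were chosen, and 68 of 530 values moved by more than the spread between replicates, 40 of these with limma on log2(TPM + 1). Depth limits the 19 genes with fewer than 30 knockout reads, for which the size of the difference is uncertain.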
